A study of Neurospora crassa with 12 samples.

Results

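The genes described here are those whose identifiers run from NCU04861 to NCU04867, neighbours on chromosome IV of the filamentous fungus Neurospora crassa that belong to secondary metabolism cluster (SMC) no. 7. The count table held 5 of them among 10592 genes: NCU04861, NCU04862, pks-3 (NCU04865), ada-6 (NCU04866) and NCU04867. The identifiers NCU04863 and NCU04864 stood in neither the count table nor the RefSeq gene table, so 2 numbers of the range had no gene. The genes were chosen by their levels in the third of 4 stages of conidial germination, where a rise had been seen, so every value of these genes that involves this stage is given as a description without a test.

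Filamentous fungi often keep the genes for one secondary metabolite side by side on a chromosome. Such a cluster is built around a core enzyme, here a polyketide synthase, a large protein of several domains that joins acetyl and malonyl units into a carbon chain, and it often holds enzymes that modify the chain and transcription factors that control the cluster. Neurospora crassa has a modest number of such clusters, and the product of many of them is not known. Conidia are the asexual spores of the fungus, which on a new medium swell, establish polar growth, extend a germ tube and branch.

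Wild type macroconidia of strain FGSC2489 (mating type mat A) were, by the growth protocol and the study's methods, grown on cellophane over Bird medium at 37 °C under continuous white light in all 12 libraries. The source label of all 12 samples instead names PDA, potato dextrose agar, another medium of the same study, and nothing in the counts was used to decide between them. Stage 1 was fresh conidia. Stage 2 was the onset of polar growth, stage 3 was the extension of the germ tube to a doubled long axis, and stage 4 was the first branching of the hypha, and each had 3 biological replicates. The sample titles gave 15, 60, 120 and 240 min for stages 1 to 4, whereas the sample attributes gave 15, 120, 240 and 360 min, so the stages are named here by number. By the study's methods the times in the titles belong to Bird medium at the higher temperature and those in the attributes to PDA at a lower one, so the culture named here rests on the growth protocol and the titles. Each replicate was tissue from several plates of a single collection of a single strain, and cells at the named stage were not separated from any others on the plate. A lower level in such bulk RNA can come from fewer cells of a kind or from less RNA per cell, which cannot be told apart.

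Messenger RNA was captured with oligo(dT), and the deposited estimated counts summed to between 42996748 and 71990884 per library. Levels are given as CPM, the usual depth-scaled read count, after trimmed mean of M values (TMM) scaling. A total of 8330 genes had enough counts to be tested. The share of counts in annotated rRNA genes was 37.9% in stage 3 replicate 2 and between 1.68% and 11.3% in the other 11 libraries, so the log2 changes of the cluster's genes that rest on this library are also given without it. The summed level of 4 conidial genes (eas, con-6, con-8 and con-10) was 11725 to 14107 CPM in stage 1, 87.0 to 92.7 CPM in stage 2, 8.996 to 10.5 CPM in stage 3 and 71.3 to 104 CPM in stage 4, with none of the 4 at 0 in any library. All 4 were downregulated in stage 2 relative to stage 1, against 37.9% of all genes tested. Across all genes, stage 4 could not be separated from stage 2: edgeR called 0 of the 8330 genes between them, DESeq2 called 1, and 136 genes (1.63%) had an unadjusted edgeR p below 0.05.

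The 5 genes spanned 35821 bases of chromosome IV, from base 513043 to base 548863 of genome build NC12. NCU04861 lay at 513043 to 516021, NCU04862 at 517962 to 521937, pks-3 at 525092 to 533876, ada-6 at 536988 to 539552 and NCU04867 at 547664 to 548863. The spaces between neighbours were 1940, 3154, 3111 and 8111 bases long, the widest being the one between ada-6 and NCU04867. NCU04860, the sixth gene of SMC no. 7, lay 1514 bases from NCU04861 on the other side. Of these genes, pks-3 is annotated as a polyketide synthase and is the core enzyme of the cluster, and ada-6 encodes a transcription factor of the fungal zinc binuclear cluster family that is known to act in asexual and sexual development. NCU04861 and NCU04862 are annotated as hypothetical proteins.

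The core gene pks-3 was high in stage 1, low in stage 2, high again in stage 3 and low in stage 4. Because stages 2 and 4 could not be separated across all genes, the low stage 4 level is not read as an event of branching. Its level was 30.6, 39.1 and 32.8 CPM in the stage 1 libraries (replicates 1, 2 and 3), 16.1, 17.2 and 15.8 CPM in stage 2, 42.5, 40.5 and 46.8 CPM in stage 3, and 14.5, 14.1 and 17.2 CPM in stage 4. The stage 3 libraries were all above those of the other stages, though the lowest of them was only just above the highest stage 1 library, and the stage 2 and stage 4 libraries overlapped. The means were 34.2 ± 4.38, 16.4 ± 0.752, 43.3 ± 3.18 and 15.3 ± 1.71 CPM in stages 1 to 4 (SD, n = 3 each). Relative to stage 1 the level was 47.9% in stage 2, 127% in stage 3 and 44.8% in stage 4.

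The transcription factor gene ada-6 followed the same course with a steeper peak. It had 15.6, 15.7 and 14.6 CPM in the stage 1 libraries, 7.38, 7.37 and 7.79 CPM in stage 2, 28.6, 25.6 and 31.8 CPM in stage 3, and 9.38, 8.89 and 6.57 CPM in stage 4. All stage 3 libraries were well above all stage 1 libraries, which in turn were above all those of stages 2 and 4, and the last 2 stages named overlapped. The means were 15.3 ± 0.603, 7.52 ± 0.239, 28.7 ± 3.08 and 8.28 ± 1.50 CPM in stages 1 to 4 (SD, n = 3 each), so that stage 3 was at 187% of stage 1.

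NCU04862 was also higher in stage 3 than in the stages before and after it, but it did not regain its level in conidia. Its level was 15.7, 15.0 and 14.7 CPM in the stage 1 libraries, 2.17, 1.98 and 1.86 CPM in stage 2, 5.51, 6.32 and 7.41 CPM in stage 3, and 1.51, 1.83 and 2.61 CPM in stage 4. Stage 1 was the highest without overlap, stage 3 came next without overlap, and stages 2 and 4 overlapped. The means were 15.1 ± 0.512, 2.00 ± 0.159, 6.41 ± 0.951 and 1.98 ± 0.564 CPM in stages 1 to 4 (SD, n = 3 each), and stage 3 was at 42.4% of stage 1.

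NCU04861 went against the label of a cluster rising in stage 3. It had 14.2, 15.1 and 16.9 CPM in the stage 1 libraries, 4.61, 4.84 and 5.69 CPM in stage 2, 3.43, 4.02 and 3.49 CPM in stage 3, and 6.05, 5.07 and 4.25 CPM in stage 4. Stage 3 was its lowest stage, with every library below every library of stages 2 and 4, although the highest stage 3 library and the lowest stage 4 library were close. The means were 15.4 ± 1.40, 5.04 ± 0.567, 3.65 ± 0.322 and 5.12 ± 0.902 CPM in stages 1 to 4 (SD, n = 3 each), and stage 3 was at 23.7% of stage 1. The 4 conidial genes moved in the same directions, being downregulated in stage 3 relative to stage 2 and upregulated in stage 4 relative to stage 3 in 4 of 4 cases. Of all genes, 18.2% were called so at each step. The median log2 changes of the conidial genes were −2.85 and 2.52, against −0.47 and 0.50 for NCU04861. Their part in the course of NCU04861 was not tested.

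NCU04867, which the study lists among the genes seen only in Neurospora genomes, had 0 counts in all 12 libraries, as did NCU04860. A count of 0 allows up to 3 counts, which corresponded to between 0.0413 and 0.0662 CPM depending on the library. Both genes were thus not detectable at this depth, as were 941 genes of the whole table, and no fold change is given for them. The rise in stage 3 therefore describes 3 of the 5 genes.

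**Figure D1:**
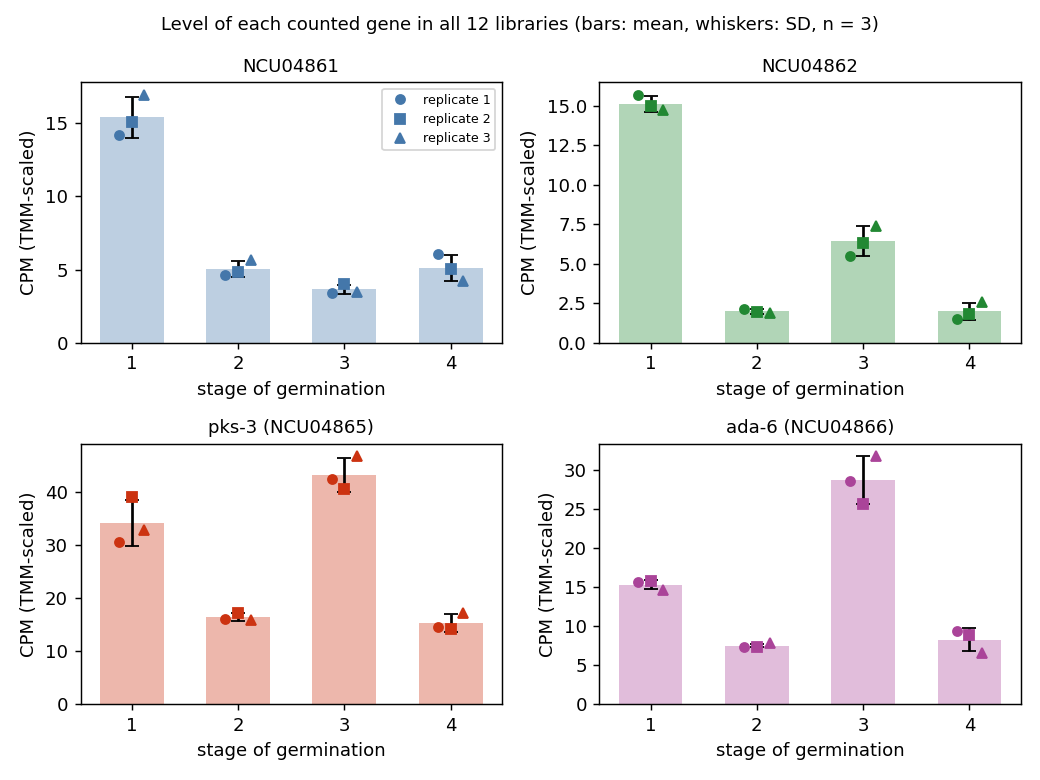
CPM after TMM scaling (linear axes from 0) of the 4 genes with counts in stages 1 to 4, with points for the replicates, bars for the mean and whiskers for the SD (n = 3 per stage). The stage 3 points of pks-3 (40.5 to 46.8 CPM), ada-6 (25.6 to 31.8 CPM) and NCU04862 (5.51 to 7.41 CPM) lie above those of stages 2 and 4, while those of NCU04861 (3.43 to 4.02 CPM) lie below them.

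Between germ tube extension and polar growth, the change was largest for ada-6. Its fitted level was 3.81-fold higher in stage 3 than in stage 2, a log2 change of 1.93 ± 0.12 (SE), the 83rd highest of the 8330 genes tested. NCU04862 was 3.21-fold higher (log2 1.68 ± 0.17, 130th) and pks-3 was 2.64-fold higher (log2 1.40 ± 0.10, 181st). NCU04861 differed in the other direction, by −0.47 ± 0.14 on the log2 scale. Stage 3 libraries lay all above stage 2 libraries for 3 of the 4 genes tested, against 28.2% of all genes, and all below for 1, against 26.6%. Because the genes were picked for this comparison, these positions describe the choice and no more is read from them. Without stage 3 replicate 2, the library rich in rRNA, the log2 changes were 2.00 for ada-6, 1.69 for NCU04862, 1.44 for pks-3 and −0.55 for NCU04861, so none of the 4 was smaller in size than with it.

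The step from stage 3 to stage 4 ran the other way for each of the 4 genes. The log2 change in stage 4 relative to stage 3 was −1.79 ± 0.12 for ada-6, −1.70 ± 0.17 for NCU04862 and −1.502 ± 0.10 for pks-3 (SE), while that of NCU04861 was 0.50 ± 0.14. Stage 4 libraries lay all below stage 3 libraries for 3 of the 4 genes, against 26.7% of all genes, and all above for 1, against 25.4%. This step shares the stage 3 libraries with the one before it, so the pair is a single observation of the level in stage 3. Without stage 3 replicate 2 the log2 changes were −1.86 for ada-6, −1.71 for NCU04862, −1.54 for pks-3 and 0.57 for NCU04861. Over the whole table, 23.6% of the genes tested had all stage 3 libraries above all those of stages 2 and 4, and 271 genes (3.25%) were at least 2-fold higher in stage 3 than in both. The last group includes ada-6, NCU04862 and pks-3. The reverse, with all stage 3 libraries below those of stages 2 and 4 as in NCU04861, was found for 22.1% of the genes.

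Relative to fresh conidia, the stage 3 levels fell on both sides of 0 change. The log2 change in stage 3 relative to stage 1 was −2.08 ± 0.14 for NCU04861 and −1.24 ± 0.16 for NCU04862, against 0.34 ± 0.10 for pks-3 and 0.90 ± 0.12 for ada-6 (SE). Without stage 3 replicate 2 they were −2.14 for NCU04861, −1.21 for NCU04862, 0.40 for pks-3 and 0.99 for ada-6. In chromosome order from NCU04861 to ada-6, the change in this comparison was thus higher at each gene than at the one before it. No other pair of stages gave this order. In stage 3 relative to stage 2 the change was lower for pks-3 (1.40) than for NCU04862 (1.68). In stage 2 relative to stage 1 it was lower for NCU04862 (−2.92) than for NCU04861 (−1.61). The genes were picked by their stage 3 levels, so no trend along the chromosome is read from the order.

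Comparisons that leave out the stage 3 libraries were tested. The rise that picked the genes was relative to stage 2, so tests that use stage 2 are not free of that choice. All 4 genes with counts were downregulated in stage 2 relative to stage 1, where 37.9% of all genes tested were called lower. The decrease was deepest for NCU04862, at −2.92 ± 0.17 on the log2 scale (SE, edgeR adjusted p = 1.93e-09), followed by NCU04861 at −1.61 ± 0.13 (edgeR adjusted p = 8.28e-08). It was shallower for pks-3, at −1.06 ± 0.10 (edgeR adjusted p = 3.10e-07), and for ada-6, at −1.03 ± 0.12 (edgeR adjusted p = 2.88e-06). All stage 2 libraries lay below all stage 1 libraries for each of the 4, which 39.3% of all genes also did. The summed level of the conidial genes moved with this decrease and was far lower in stage 2 than in stage 1, and its part in the decrease was not tested. The stage 2 libraries also enter the comparison with stage 3, so the low level in stage 2 is not independent of the later rise.

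The same decrease was found in stage 4 relative to stage 1, with 4 of 4 genes downregulated against 38.2% of all genes. The log2 change was −2.94 ± 0.17 for NCU04862 (SE, edgeR adjusted p = 1.96e-09), −1.58 ± 0.13 for NCU04861 (edgeR adjusted p = 9.88e-08), −1.16 ± 0.10 for pks-3 (edgeR adjusted p = 1.27e-07) and −0.89 ± 0.12 for ada-6 (edgeR adjusted p = 1.24e-05). This comparison and the one between stages 2 and 1 share the stage 1 libraries. Stage 4 also could not be separated from stage 2 across all genes, so this is not a second, independent finding of the decrease.

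No difference between stages 4 and 2 passed the test for any of the 4 genes. The same held for all 8330 genes tested, of which edgeR called 0, so this is not particular to the cluster. Whether stages 2 and 4 are separate time points could not be checked. The log2 change was 0.02 for NCU04861 (95% confidence interval −0.27 to 0.32), −0.02 for NCU04862 (−0.41 to 0.37), −0.10 for pks-3 (−0.32 to 0.12) and 0.14 for ada-6 (−0.12 to 0.40), with an edgeR adjusted p of 1 for each. The intervals thus allow differences of up to 0.41 on the log2 scale in size, which for NCU04862, ada-6 and pks-3 is less than the change at either side of stage 3.

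**Figure D2:**
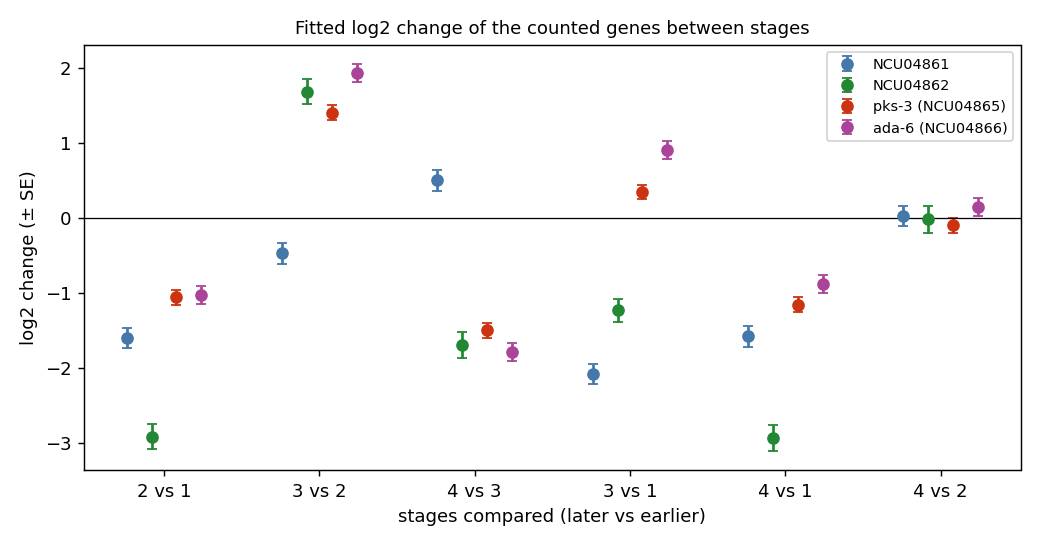
Fitted log2 change (points) with its SE (whiskers) of the 4 genes with counts for 6 pairs of stages, each given as the later against the earlier stage. The points of NCU04862, pks-3 and ada-6 lie at 1.68, 1.40 and 1.93 in stage 3 relative to stage 2 and at −1.70, −1.502 and −1.79 in stage 4 relative to stage 3, NCU04861 has the opposite sign in both, and all 4 are near 0 in stage 4 relative to stage 2.

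The genes did not keep a fixed proportion to each other. Within libraries, the ratio of ada-6 to pks-3 in CPM averaged 0.453 ± 0.0533 in stage 1, 0.460 ± 0.0322 in stage 2, 0.661 ± 0.0262 in stage 3 and 0.553 ± 0.149 in stage 4 (SD, n = 3 each). The lowest stage 3 ratio, 0.631, was above the highest of stage 1, 0.509, and of stage 2, 0.492, but stage 4 overlapped with stage 3. The ratio of NCU04862 to pks-3 was 0.448 ± 0.0647 in stage 1 and then 0.122 ± 0.0112, 0.148 ± 0.0159 and 0.128 ± 0.0234 in stages 2, 3 and 4, so that these genes changed by similar factors after stage 2 and by different ones before it. The ratio of NCU04861 to pks-3 was 0.456 ± 0.0653, 0.309 ± 0.0436, 0.0848 ± 0.0127 and 0.341 ± 0.0872 in stages 1 to 4, lowest in stage 3 without overlap with any other stage.

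**Figure D3:**
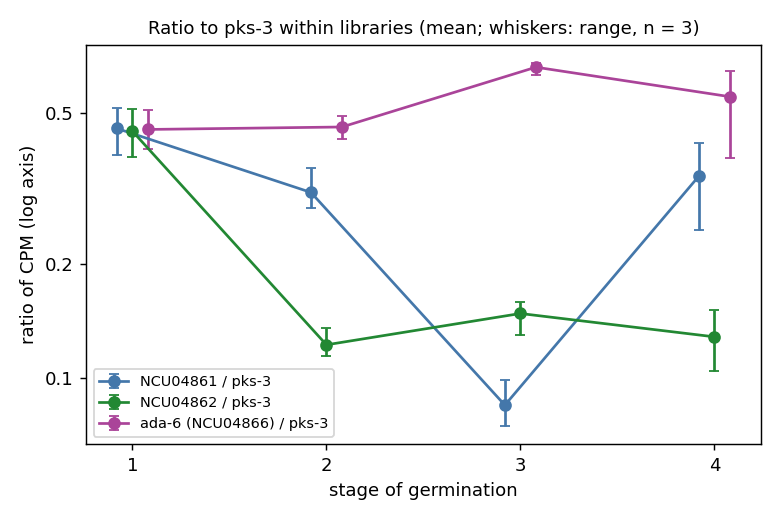
Ratio of the CPM of ada-6, NCU04862 and NCU04861 to that of pks-3 within the same library (log axis) in stages 1 to 4, with points for the mean and whiskers for the lowest and highest of 3 libraries. In CPM not scaled by gene length, the 3 ratios are alike in stage 1 at 0.453, 0.448 and 0.456. They are apart in stage 3 at 0.661, 0.148 and 0.0848, and are at 0.553, 0.128 and 0.341 in stage 4.

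Per kilobase of annotated span, introns included, ada-6 was the most abundant of the cluster's genes in every stage. It had 5.98, 2.93, 11.2 and 3.23 CPM per kb in stages 1 to 4, and pks-3 had 3.89, 1.86, 4.93 and 1.74 CPM per kb. NCU04861 had 5.17, 1.69, 1.22 and 1.72 CPM per kb and NCU04862 had 3.80, 0.503, 1.61 and 0.499 CPM per kb. By its mean, NCU04862 was the lowest of the 4 in every stage but stage 3, where NCU04861 was lower, and in stage 1 it was within the SD of pks-3.

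The course of each gene was also compared with those of 6092 genes that reached 10 CPM in their highest stage, by Pearson's r of log2(CPM + 1) over the 12 libraries. Libraries of the same stage are alike for most genes, so that r here mainly describes the order of 4 stage means, and no p is given. For pks-3 the most alike were NCU09136 (r = 0.987), NCU06207 (r = 0.985) and NCU04113 (r = 0.984), on chromosomes I, III and V, and ada-6 came 79th (r = 0.932). For ada-6 the most alike were NCU01136 (r = 0.989), NCU08786 (r = 0.978) and NCU00729 (r = 0.977), on chromosomes V, III and I, and pks-3 came 43rd. NCU01136 had mean levels of 14.5, 8.53, 24.9 and 8.94 CPM in stages 1 to 4, close to those of ada-6 itself.

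NCU04862 was most alike to NCU01026 (r = 0.992), NCU00673 (r = 0.988) and NCU08358 (r = 0.988), and NCU04861 to NCU08903 (r = 0.992), NCU03284 (r = 0.989) and NCU03876 (r = 0.989). None of these 12 genes lay on chromosome IV. Among the cluster's own genes, r was 0.820 between NCU04862 and pks-3, 0.643 between NCU04862 and ada-6 and 0.678 between NCU04861 and NCU04862. It was 0.18 between NCU04861 and pks-3 and −0.03 between NCU04861 and ada-6. Among the genes most alike to NCU04862, pks-3 came only 1105th, NCU04861 1830th and ada-6 1936th. For NCU04861, NCU04862 came 2062nd, pks-3 2684th and ada-6 2893rd. NCU04862 came 276th for pks-3 and 508th for ada-6. The genes whose course was nearest to that of a cluster gene were thus elsewhere in the genome in all 4 cases.

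Among the genes on either side of the cluster, the changes called between stages 3 and 2 ranged from −0.75 to 0.63 on the log2 scale. Of the 10 genes before NCU04861, 6 were tested, and 3 were upregulated in stage 3 relative to stage 2 and 0 downregulated, against 20.8% and 18.2% of all genes. The nearest of at least 1 CPM was nst-4 (NCU04859), a sirtuin gene 10130 bases from NCU04861, with 72.1 ± 12.1 CPM in stage 3 and 70.2 ± 2.80 CPM in stage 2 (SD, n = 3 each) and a log2 change of 0.04 ± 0.13 (SE, edgeR adjusted p = 0.835). The flanking gene with the largest change in size on that side was NCU16729 (−0.89 ± 0.98, edgeR adjusted p = 0.510), which had at most 17 counts in any library. Among its better counted neighbours, singled out after their values were seen, NCU04855 rose by 0.63 ± 0.06 (SE, edgeR adjusted p = 6.05e-06).

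Of the 10 genes after NCU04867, 8 had 0 counts in every library, of which 3 are annotated as tRNA genes, which oligo(dT) capture is not made to retain. The nearest of at least 1 CPM was NCU04872, 31582 bases from ada-6. It was at 61.7 ± 3.05 CPM in stage 3, against 103.5 ± 5.47 CPM in stage 2 (SD, n = 3 each), a log2 change of −0.75 ± 0.07 (SE, edgeR adjusted p = 2.36e-06). The 3 genes that were higher in stage 3 thus stood between NCU04861, which was lower, and a stretch with hardly any counts.

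**Figure D4:**
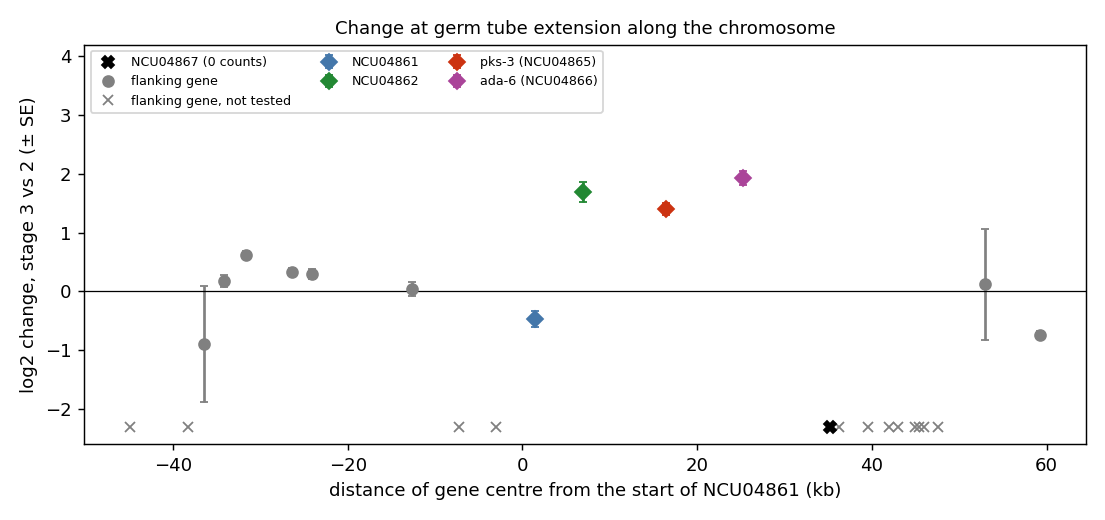
Log2 change in stage 3 relative to stage 2 with its SE (vertical axis) of the 5 genes and 10 genes on each side, by the distance of the gene's centre from the start of NCU04861 in kb, with crosses at the bottom for genes that were not tested. NCU04862, pks-3 and ada-6 lie at 1.68, 1.40 and 1.93, and among the flanking genes the called changes lie between −0.75 (NCU04872) and 0.63 (NCU04855).

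The genome holds 7 further polyketide synthase genes in the list used here: pks-1, pks-2, pks-4, pks-5, pks-6, per-1, whose product acts in melanin synthesis, and csy, a chalcone synthase gene. None of the 5 that could be tested was called between stages 3 and 2, whereas 39% of all genes were. Of the 5, pks-2 and pks-5 had at most 21 counts in any library, which left little room for a call. Stage 3 libraries lay all above stage 2 libraries for 2 of the 5 (pks-1 and pks-4), against 28.2% of all genes. They lay all below for 1 (csy), against 26.6%. Only pks-1, pks-4 and csy exceeded 1 CPM in any stage. pks-1 was at 19.1 ± 0.324 CPM in stage 3 and 16.96 ± 0.931 CPM in stage 2 (SD, n = 3 each), a log2 change of 0.18 ± 0.09 (SE, edgeR adjusted p = 0.142). pks-4 was at 27.5 ± 1.42 CPM in stage 3 and 23.5 ± 2.17 CPM in stage 2, a log2 change of 0.23 ± 0.11 (edgeR adjusted p = 0.112). csy differed by −0.24 ± 0.10 (edgeR adjusted p = 0.0885). The difference between pks-3 and these genes in this step was not tested, since pks-3 was picked for it.

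Relative to conidia the polyketide synthase genes also went different ways. In stage 2 relative to stage 1, csy was upregulated by 2.70 ± 0.12 on the log2 scale (SE, edgeR adjusted p = 7.00e-11) and pks-1 was downregulated (−0.41 ± 0.09, edgeR adjusted p = 0.000932), beside −1.06 ± 0.10 for pks-3, a difference that was not tested. pks-4 differed by −0.18 ± 0.11 (edgeR adjusted p = 0.136). In stage 4 relative to stage 1, csy was again upregulated and pks-1 and pks-5 were downregulated, pks-5 at under 1 CPM throughout. Per kilobase, pks-3 at 4.93 CPM per kb in stage 3 was above pks-1 at 2.56 and pks-4 at 2.40 and below csy at 6.14. In stage 2, pks-3 at 1.86 CPM per kb was the lowest of these 4 genes.

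**Figure D5:**
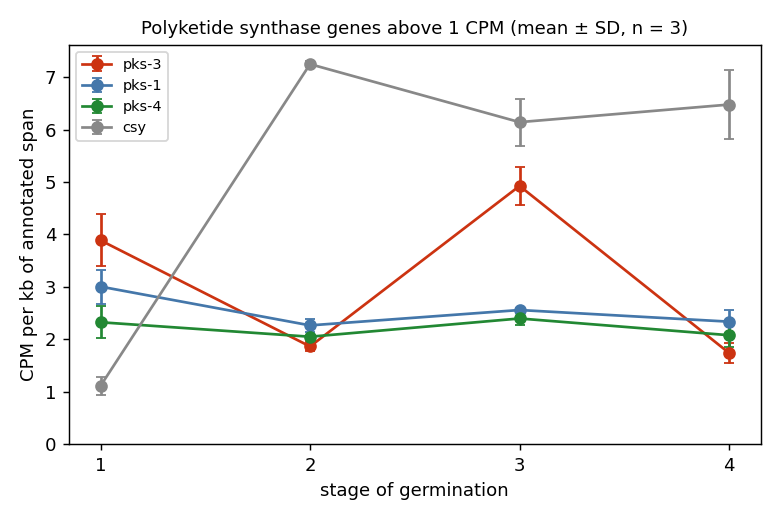
Mean CPM per kb of annotated span with its SD (n = 3) of the 4 polyketide synthase genes above 1 CPM, in stages 1 to 4, on a linear axis from 0. pks-3 peaks at 4.93 CPM per kb in stage 3 and is at 1.86 and 1.74 in stages 2 and 4, while pks-1 and pks-4 stay between 2.05 and 3.01 and csy is at 1.11 in stage 1 and between 6.14 and 7.25 afterwards.

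The other SMC genes moved in both directions. Of 172 SMC genes outside the range, 136 were tested, and 43 were upregulated and 18 downregulated in stage 3 relative to stage 2, against 20.8% and 18.2% of all genes. The upregulated share was thus above that of all genes and the downregulated share below it. Their median log2 change was 0.11, against 0 for all genes tested. The median of the 4 cluster genes described here was 1.54, which reflects that they were picked for this step, so nothing is read from the difference. In stage 4 relative to stage 3, 20 of the 136 were upregulated and 42 downregulated, against 18.2% and 20.8% of all genes, with a median of −0.12. Here the downregulated share was the one above that of all genes. In stage 2 relative to stage 1, 47 of the 136 were upregulated and 63 downregulated, against 39.4% and 37.9% of all genes, with a median of −0.25 against 0.01 for all genes and −1.33 for the 4 cluster genes.

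The other genes whose symbol begins with ada, named for alterations of all development, did not share one course. Of 5 tested, 2 (ada-1 and ada-5) were upregulated in stage 3 relative to stage 2 and 1 (ada-2) was downregulated, against 20.8% and 18.2% of all genes. The changes of ada-3 and ada-4 did not pass the test. ada-1 was at 58.2 ± 11.2 CPM in stage 3, against 23.6 ± 4.25 CPM in stage 2 (SD, n = 3 each), a log2 change of 1.303 ± 0.16 (SE, edgeR adjusted p = 2.73e-05). In stage 4 relative to stage 3, 2 of the 5 were downregulated and 1 upregulated, against 20.8% and 18.2% of all genes. The 2 were ada-1 (−1.22 ± 0.16, edgeR adjusted p = 4.72e-05) and ada-5 (−0.48 ± 0.12, edgeR adjusted p = 0.00674), so ada-1 and ada-5, like ada-6, were highest in stage 3. Unlike ada-6, ada-1 and ada-5 were also higher in stage 2 than in stage 1, by 1.31 ± 0.16 and 0.49 ± 0.12 (edgeR adjusted p = 5.35e-06 and 0.00247). ada-4 was downregulated in stage 2 relative to stage 1 (−1.06 ± 0.09, edgeR adjusted p = 1.10e-07), beside −1.03 for ada-6, and differed by 0.07 ± 0.09 in stage 3 relative to stage 2 (edgeR adjusted p = 0.557).

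Genes listed for fatty acid synthase, precursor supply and regulation of secondary metabolism were looked at beside them. In the last 2 lists, genes other than acu-5 and ve-1 were not checked against an annotation. cel-1 and cel-2, the subunits of fatty acid synthase, which uses the same acetyl and malonyl units, were both downregulated in stage 2 relative to stage 1 (−0.40 ± 0.11 and −0.71 ± 0.09, SE, edgeR adjusted p = 0.00323 and 7.28e-06), against 37.9% of all genes. Both were upregulated in stage 3 relative to stage 2 by 0.38 (edgeR adjusted p = 0.0113 for cel-1 and 0.00494 for cel-2) and downregulated in stage 4 relative to stage 3, against 20.8% of all genes at each step. Of 4 genes listed for precursor supply, 3 were upregulated and 1 downregulated in stage 2 relative to stage 1, against 39.4% and 37.9% of all genes. All 4 were upregulated in stage 3 relative to stage 2, against 20.8% of all genes. In stage 4 relative to stage 3, 3 of them were downregulated, against 20.8% of all genes. One of them, acu-5, the acetyl-CoA synthetase gene, was upregulated at both of the first steps, by 0.92 ± 0.08 and 0.32 ± 0.08 (edgeR adjusted p = 2.32e-07 and 0.00768). The 4 genes listed as regulators went different ways. In stage 3 relative to stage 2, 1 was upregulated and 2 were downregulated, against 20.8% and 18.2% of all genes, with a median log2 change of −0.24. ve-1, a gene of the velvet family, which controls development and secondary metabolism in filamentous fungi, had 140.3 ± 0.817 CPM in stage 3 and 93.0 ± 5.003 CPM in stage 2 (SD, n = 3 each). Its log2 change was −0.49 ± 0.07 in stage 2 relative to stage 1, 0.59 ± 0.07 in stage 3 relative to stage 2 and −0.61 ± 0.07 in stage 4 relative to stage 3 (SE, edgeR adjusted p = 1.68e-05, 1.75e-05 and 1.49e-05). The other 3, which carry no symbol in RefSeq, had the opposite signs: NCU00646 was downregulated in stage 3 relative to stage 2 (−2.003 ± 0.08, edgeR adjusted p = 3.45e-09), as was NCU02775 (−0.28 ± 0.08, edgeR adjusted p = 0.0181), and NCU05964 differed by −0.21 ± 0.20 (edgeR adjusted p = 0.447). In stage 4 relative to stage 3, NCU00646 was upregulated by 1.97 ± 0.08 (edgeR adjusted p = 5.70e-09).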

How the data were processed

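As the labels and the methods of the study describe it, the authors sequenced stranded poly(A) libraries (base calls by CASAVA 1.8.2), trimmed the reads, aligned them to the OR74A genome with HISAT2 2.1.0 and made expected counts per gene with StringTie 1.3.3b and its count script. The read length given to that script is not given in the sources used here, and a fragment may give more than 1 count. The deposited expected counts were whole numbers and were used as they stood. A second deposited table, which holds the authors' own fold levels over the lowest stage, was not used.

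Counts were scaled by TMM and fitted in edgeR 4.0.16 (R 4.3.3) by its quasi-likelihood test, with 1 coefficient per stage over all 12 libraries and no covariate. Genes were filtered by filterByExpr (minimum count 10, minimum total 15), and p-values were adjusted by Benjamini-Hochberg over the 8330 genes, with a threshold of 0.05. The common biological coefficient of variation was 10.8%. On simulated counts with 200 genes changed 2-fold, the test recovered 94.5% of them for stage 2 against stage 1, 92.5% for stage 4 against stage 1 and 93.5% for stage 4 against stage 2, and 3.57%, 7.04% and 7.88% of its calls were genes that had not been changed. The simulation gave all genes the same spread and left all but the 200 unchanged. In the data 39.4% of genes were called higher and 37.9% lower in stage 2 against stage 1, so these shares may not hold there. No 2 libraries held identical counts.

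Gene symbols, spans and types came from RefSeq (NC12), which matched 10590 of the 10592 identifiers, 212 of them rRNA genes. Named genes were those of the range, NCU04860, the polyketide synthases, the flanking gene with the largest change on each side and the 3 genes of most similar course. Beyond this rule the text names the nearest counted flanking genes, NCU04855, and members of the lists of ada, fatty acid synthase, precursor supply, regulator and conidial genes. These genes and all lists were chosen with earlier results of these data known. Of the genes listed for precursor supply and for regulation of secondary metabolism, acu-5 and ve-1 alone carried a symbol in RefSeq, and the list membership of the others was not checked against an annotation.

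Alternatives were the size factors of DESeq2 (1.42.0), library totals with and without the rRNA genes, no low-count filter, the DESeq2 test, a block for the replicate number, leaving out each library, and a fit without stage 3.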

Additional observations from a re-analysis of the deposited data

How the results depend on the processing

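The calls of the 4 genes with counts did not depend on the alternatives run: 4 were lower in stage 2 than in stage 1, 4 were lower in stage 4 than in stage 1 and 0 differed between stages 4 and 2 under each of 19 alternatives. The last count is not particular to these genes, since edgeR called 0 of all 8330 genes between stages 4 and 2 in the main fit. The median log2 change of the 4 genes in stage 3 relative to stage 2 was 1.54 and lay between 1.414 and 1.602 when a library was left out, lowest without stage 3 replicate 3. The median in stage 3 relative to stage 1 was −0.45, and was −0.32 with library totals without rRNA genes, a scaling that also put the median of all genes at 0.16. With plain library totals the median of all genes was −0.10 in stage 3 relative to stage 2 and 0.13 in stage 4 relative to stage 3. The sign in stage 4 relative to stage 2 turned for NCU04862 with library totals (0.0287). It also turned when a library was left out for NCU04862 (−0.26 to 0.16) and for NCU04861 (−0.12 to 0.15), within intervals that include 0.

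Deviations of same-numbered replicates from their stage means were weakly correlated, with r from −0.32 to 0.22 over 18 pairs of libraries, 5 of them above 0.1. Differently numbered pairs are not given beside them, so this does not settle whether the numbers pair the libraries. With a replicate block the counts of calls were 4, 4 and 0 again, and the median in stage 3 relative to stage 2 was 1.54. With 3 libraries per stage, depth limits NCU04860 and NCU04867, whose counts of 0 allow a level of up to 0.0662 CPM in the shallowest library, and the stage order of NCU04861, whose libraries in stages 3 and 4 lie close together.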
